A study of Mus musculus with 6 samples.

Results

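The NF-kB genes described here are 10 named members of 1 pathway, 5 that encode the subunits of the transcription factor (Nfkb1, Nfkb2, Rel, Rela and Relb) and 5 that encode proteins which restrain it (Nfkbia, Nfkbie, Nfkbiz, Nfkbid and Tnfaip3). The members were taken by gene symbol, not by any measured value, and all 10 of 10 were present among the 19848 genes of the deposited RNA table. Female C57BL/6 mice were studied by CITE-seq, a single-cell assay in which antibodies carrying sequence tags are counted beside the RNA, applied to brain suspensions enriched for immune cells. Control mice received vehicle and antibiotic mice had their gut microbiota depleted by antibiotics (agents not named in the labels), at an age of 12 weeks (young) or 72 weeks (aged), which gave 4 groups. A total of 24 brains, 6 per group, were combined into 12 hashtagged pools, so that each group had 3 pools of several mice. The pool was the replicate in all tests. All brains were digested with papain and enriched on Percoll.

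Each age had its own well of the 10x chip, and age and well therefore cannot be told apart. The same 3 hashtags marked control pools and another 3 marked antibiotic pools at both ages, so arm and hashtag cannot be told apart either. The table held 13052 cells, 3263 in each group, with 760 to 1590 cells and 5745242 to 13742781 raw UMIs per pool, and 59 cell barcodes occurred in both wells. All 13052 cells carry the authors' call of a hashtag singlet, which does not detect doublets within a pool, and no doublet caller was run here. How other doublets were treated is not given in the sources used here. Cell types are the authors' own calls: 9403 microglia and 506 BAM (macrophages at the brain's borders), 3 further myeloid types (634 Ly6CLow, 389 Ly6CHigh and 352 Ly6C+Ly6G+), and the lymphocytes, namely 728 CD8+, 487 B, 214 CD4+ and 9 NK cells and 330 innate lymphoid cells, ILCs for short. All 6 microglia markers, all 6 BAM markers and all 6 neutrophil markers checked were highest in microglia, BAM and Ly6C+Ly6G+ cells. For the other types 4 of 4 (CD8+), 2 of 4 (CD4+), 4 of 4 (B cells), 4 of 4 (Ly6CHigh), 3 of 5 (Ly6CLow) and 4 of 5 (ILCs) markers were highest in the type of that name. Raw UMIs per cell were close between ages in microglia (medians of 6809 in young and 7118 in aged cells) and far apart in Ly6CHigh cells (13257.5 and 951).

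NF-kB is a family of dimers that waits in the cytoplasm, held by inhibitor proteins, and enters the nucleus when receptors such as those for microbial products, TNF or interleukin-1 activate the IKK kinase. In macrophages, microglia included, it drives cytokine and chemokine genes. Several of its inhibitors are its own target genes, so that their RNA rises after activation and closes a feedback loop. Rela and Rel carry strong activation domains, Relb acts mainly in the slower non-canonical pathway, and Nfkb1 and Nfkb2 are made as precursors that are cut to DNA-binding subunits. Nfkbia and Nfkbie encode classical cytoplasmic inhibitors, Nfkbiz and Nfkbid encode atypical inhibitors that act in the nucleus, and Tnfaip3 encodes a ubiquitin-editing enzyme that shuts off signals upstream of IKK. Only RNA was measured for these genes here, and NF-kB activity depends on where its proteins are.

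Since several members are themselves NF-kB targets, their promoters are shown first. RefSeq promoters (build GRCm38.p6, 250 bases before to 50 after each annotated start) were found for 7 of the 10 members, with entries for Nfkb2, Rel, Rela, Nfkbia, Nfkbie, Nfkbid and Tnfaip3. They were searched on both strands for the kappa B consensus, the 10-base element that NF-kB binds. A match stood in at least 1 promoter of 6 of these 7 members, Rela being the exception, against 4.51% of the 32851 promoters in the table and 5.14% of the 27025 genes that have one. Per promoter, 8 of 12 member promoters held a match. A match is a description of letters and not a measured binding site.

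The stretches below carry those matches (for Nfkb2 only some) for the members that the results turn on and for Nfkb2, Rel and Nfkbie. Each is written 5′ to 3′ on the strand of its gene, with the matching bases in capitals. Those of Nfkbia, Tnfaip3, Rel and Nfkbie lie upstream of the annotated gene. Nfkbia is from chr12:55492648-55492716 (minus strand), with a match 29 to 20 bases upstream of the start.
Nfkbia: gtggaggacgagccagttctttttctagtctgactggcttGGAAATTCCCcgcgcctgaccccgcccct
Tnfaip3 is from chr10:19015411-19015575 (minus strand) and has 2 matches, 125 to 116 and 12 to 3 bases upstream.
Tnfaip3: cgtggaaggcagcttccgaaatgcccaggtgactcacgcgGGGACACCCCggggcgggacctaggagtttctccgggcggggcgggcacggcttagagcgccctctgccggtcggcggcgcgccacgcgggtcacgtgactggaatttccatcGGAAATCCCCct
Rel is from chr11:23771011-23771101 (minus strand), where 2 overlapping matches begin 92 and 91 bases upstream.
Rel: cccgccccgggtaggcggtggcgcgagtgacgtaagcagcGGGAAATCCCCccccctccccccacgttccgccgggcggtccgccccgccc
Nfkbie is from chr17:45555554-45555643 (plus strand), with a match 106 to 97 bases before the start.
Nfkbie: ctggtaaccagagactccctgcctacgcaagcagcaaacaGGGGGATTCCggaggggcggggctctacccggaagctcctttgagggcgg
Nfkb2 is from chr19:46304688-46304717 (plus strand), inside the annotated span of the gene. It holds 2 overlapping matches that begin 39 and 38 bases before the first start that has a promoter entry. A further match 11 to 2 bases before that start, and those at its other starts, are not shown.
Nfkb2: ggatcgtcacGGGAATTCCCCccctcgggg
Nfkbid has its matches before the second of its 3 annotated starts, also inside the gene, at chr7:30422170-30422199 and chr7:30422215-30422244 (plus strand).
Nfkbid, first match: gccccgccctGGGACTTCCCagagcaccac
Nfkbid, second match: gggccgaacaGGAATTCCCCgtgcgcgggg

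Across cell types averaged over all pools, Nfkbia was highest in microglia and Nfkbiz in BAM, and both were lowest in CD8+ cells. Levels are given as the mean SCT-corrected UMI value per cell (whole-number values that the authors corrected towards a common depth), taken over pools with at least 10 cells of the type. These levels are a description with no test, and neighbours in an order are said to differ only where their means differ by more than the larger SD over pools.

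By the mean over pools Nfkbia was highest in microglia, at 17.1 in the lowest pool, 19.9 at the median and 22.9 in the highest (SD 1.86, n = 12 pools). Of microglia, 97.8% held at least 1 UMI value of it. Ly6CLow cells followed at 15.0 ± 3.2 (n = 12), below microglia by more than the larger SD and in 10 of 12 pools. Ly6C+Ly6G+ cells had 14.5 ± 5.6 (n = 9), BAM 12.0 ± 1.94 (n = 12) and ILCs 11.5 ± 8.53 (n = 11), and these did not differ beyond their spread. Nfkbia was low in B cells (4.07 ± 1.38, n = 12) and lowest in CD8+ cells (2.83 ± 1.28, n = 11), so that its level in microglia was 4.90 and 7.08 times theirs and higher in every pool that held both types. Nfkbiz was highest in BAM (7.73 ± 1.66, n = 12), where it exceeded the next type, Ly6C+Ly6G+ cells (5.81 ± 1.62, n = 9), by more than the larger SD, followed by microglia (5.31 ± 0.697) and Ly6CLow cells (4.96 ± 0.411). BAM had more Nfkbiz than microglia in 11 of 12 pools, and CD8+ cells had the least (0.853 ± 0.262). Nfkbid, the other atypical inhibitor, ranged from 1.29 ± 0.269 in BAM and 1.19 ± 0.293 in microglia to 0.493 ± 0.221 in Ly6CHigh cells.

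Tnfaip3 had another order, with ILCs and CD4+ cells near the top. ILCs (4.77 ± 2.78, n = 11), CD4+ cells (4.27 ± 1.29, n = 8) and microglia (4.25 ± 0.433, n = 12) did not differ beyond their spread, whereas microglia exceeded CD8+ cells (3.16 ± 0.85) in 11 of 11 pools. Ly6CHigh cells had the least Tnfaip3 (1.12 ± 0.428). Nfkbie ranged from 0.415 ± 0.195 in Ly6CLow cells to 0.106 ± 0.0614 in CD4+ cells, and no pair of neighbouring types in its order differed beyond the spread.

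Among the subunits, Rel was highest in Ly6CLow cells (2.33 ± 0.675), then B cells (1.81 ± 0.312) and microglia (1.55 ± 0.15), neighbours that did not differ beyond their spread, and lowest in CD8+ cells (0.394 ± 0.13). Microglia had more Rel than CD8+ cells, CD4+ cells or ILCs in every pool that held both. Nfkb1 was highest in ILCs (2.29 ± 1.49) and Ly6CLow cells (2.14 ± 1.1), and Ly6CLow cells exceeded microglia (1.11 ± 0.114) in 12 of 12 pools. Rela and Relb were highest in microglia, at 0.572 ± 0.0525 and 0.536 ± 0.0683, and for Relb the next type, BAM (0.412 ± 0.0879), lay below by more than the larger SD. Nfkb2 ranged from 0.367 ± 0.0755 in Ly6CLow cells to 0.111 ± 0.0906 in CD4+ cells, with no neighbours beyond their spread. When cells were averaged on a log scale, 8 of 10 members kept the same highest type, and Nfkb1 (then Ly6CLow) and Tnfaip3 (then CD4+) did not. Among cells between the 25th and 75th percentile of raw UMIs over all types, which left 8 types with enough cells, 7 of 10 kept it, and Nfkbid (then Ly6C+Ly6G+), Nfkbie (then B cells) and Tnfaip3 (then CD4+) did not.

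**Figure D1:**
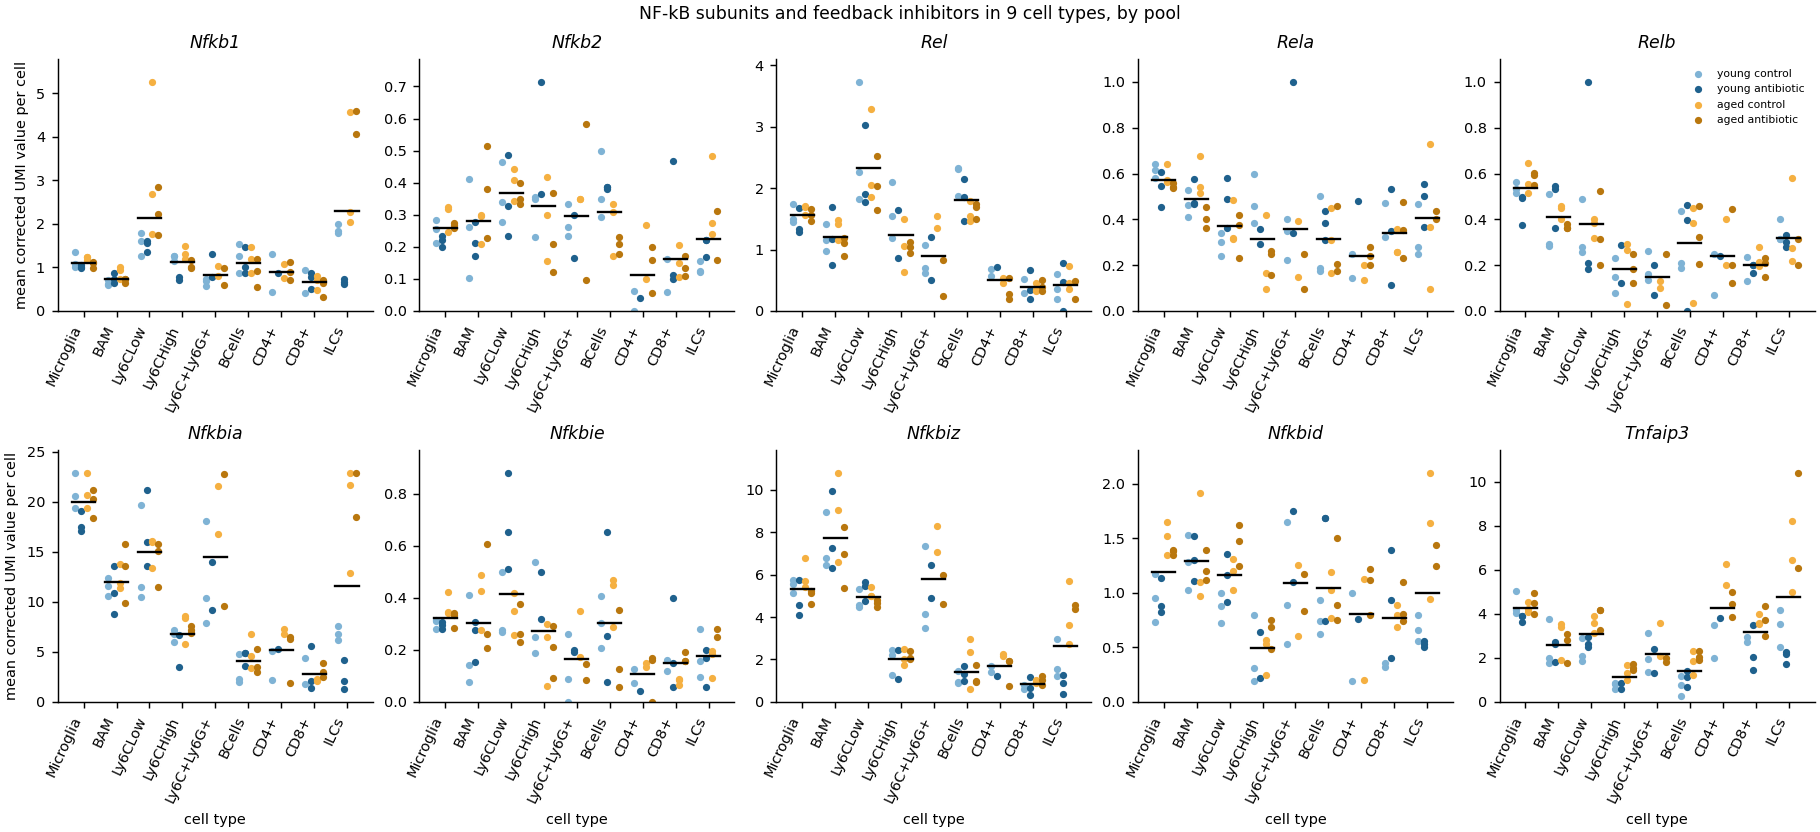
Mean SCT-corrected UMI value per cell (vertical axis, linear, a separate scale per gene) of the 10 members in 9 cell types (horizontal axis). Each dot is a pool with at least 10 cells of the type, coloured by group, and each line is the mean over pools. By that mean Nfkbia is highest in microglia (17.1 to 22.9 by pool) and Nfkbiz in BAM. The dots of ILCs are spread widest for Nfkbia (1.28 to 22.9) and reach as high as those of microglia.

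Within microglia, no member passed the test for an effect of antibiotics, although all 10 means over both ages were slightly lower in the antibiotic pools. Tests were made with limma on log2(pool mean + 0.05) over all 8759 genes with a mean of at least 0.05, which all 10 members reached, and called at an adjusted p (Benjamini-Hochberg over all genes tested) under 0.05. In young mice 0 of 10 members were called, where 0.137% of all genes were called. At an unadjusted p under 0.05 in limma were 4 of 10 members and 928 of 8759 genes. In aged mice 0 of 10 were called against 3.23% of genes, and over the mean of both ages 0 of 10 against 5.40% of genes. At an unadjusted p under 0.05 were 2 of 10 members and 1610 of 8759 genes in aged mice. Over the mean of both ages there were 4 of 10 members and 1852 of 8759 genes. In that mean over both ages, the log2 differences of all 10 members lay below 0, from -0.22 to -0.06 with a median of -0.13, where 55.2% of all genes lay below 0 and their median was -0.01. Their 95% intervals together spanned -0.37 to 0.13 on the log2 scale. Taken by age, 9 of 10 members lay below 0 in young mice, Nfkbid (0.01) being the exception. In aged mice 8 of 10 did, Relb (0.03) and Tnfaip3 (0.06) being the exceptions. The difference in antibiotic effect between ages passed the test for 0 of 10 members and for 0% of genes, and its intervals spanned -0.50 to 0.53. For that difference 1 of 10 members and 579 of 8759 genes had an unadjusted p under 0.05.

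The values behind this are close together. Nfkbiz, the nuclear inhibitor, was 5.12, 5.55 and 5.76 in young controls against 4.12, 5.74 and 4.55 with antibiotics, and 5.71, 6.79 and 5.40 in aged controls against 5.13, 5.25 and 4.62 with antibiotics. The aged groups did not overlap, the young groups did, and the mean difference over both ages was -0.22 ± 0.07 (SE, log2; limma, adjusted p = 0.0734). Nfkb1 was 1.01, 1.35 and 1.08 in young controls against 1.06, 1.01 and 0.981 with antibiotics, and 1.23, 1.23 and 1.17 in aged controls against 1.12, 0.980 and 1.09 with antibiotics. Again only the aged groups were apart, and the mean difference was -0.17 ± 0.06 (adjusted p = 0.0959). Both genes came under the threshold when the log was taken in each cell (Nfkbiz -0.19, adjusted p = 0.0309; Nfkb1 -0.08, adjusted p = 0.0344). Nfkbiz was also called without young antibiotic pool 2 (-0.29, adjusted p = 0.0114), and Nfkb1 without young control pool 1 (-0.21, adjusted p = 0.0424). Nfkbia was 20.6, 19.4 and 22.9 in young control and 17.5, 19.1 and 17.1 in young antibiotic pools. These did not overlap, but in aged mice the pools did (20.7, 22.9 and 19.4 in control, 18.4, 21.2 and 20.3 in antibiotic), and its difference in young mice was not called (-0.23 ± 0.09, adjusted p = 0.337).

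Beside these, genes that respond to glucocorticoids, such as Fkbp5, were higher in antibiotic microglia in the mean over both ages. There 6 of 9 tested were called higher and 0 lower (list median 0.35), where 5.40% of all genes were called. In aged mice alone 7 of 9 were called higher (list median 0.55, 3.23% of all genes called). In young mice 0 of 9 were called (list median 0.08, 0.137% of all genes called). The difference in antibiotic effect between ages was called for 0 of 9, so an effect confined to aged mice is not shown. Fkbp5 was 0.722 ± 0.279 in young controls against 1.43 ± 0.0329 with antibiotics, and 0.642 ± 0.221 in aged controls against 1.21 ± 0.225 with antibiotics (SD). Genes that respond to tissue dissociation moved little in the mean over both ages (list median 0.01). Of 16 tested 1 was called, Dusp1 at 0.22 ± 0.05 (limma, adjusted p = 0.0175). Dusp1 is in both lists. The summed level of the 6 microglia markers was 101 to 107 in young controls against 100 to 107 with antibiotics, and 91.6 to 99.3 in aged controls against 89.3 to 93.7 with antibiotics. The 6 neutrophil markers summed in microglia to 2.14 to 6.21 against 2.25 to 19.5 in young and 0.608 to 0.673 against 1.03 to 2.82 in aged mice, and no marker was at 0 in all pools of a group. The part of any of these in the members' levels was not tested.

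**Figure D2:**
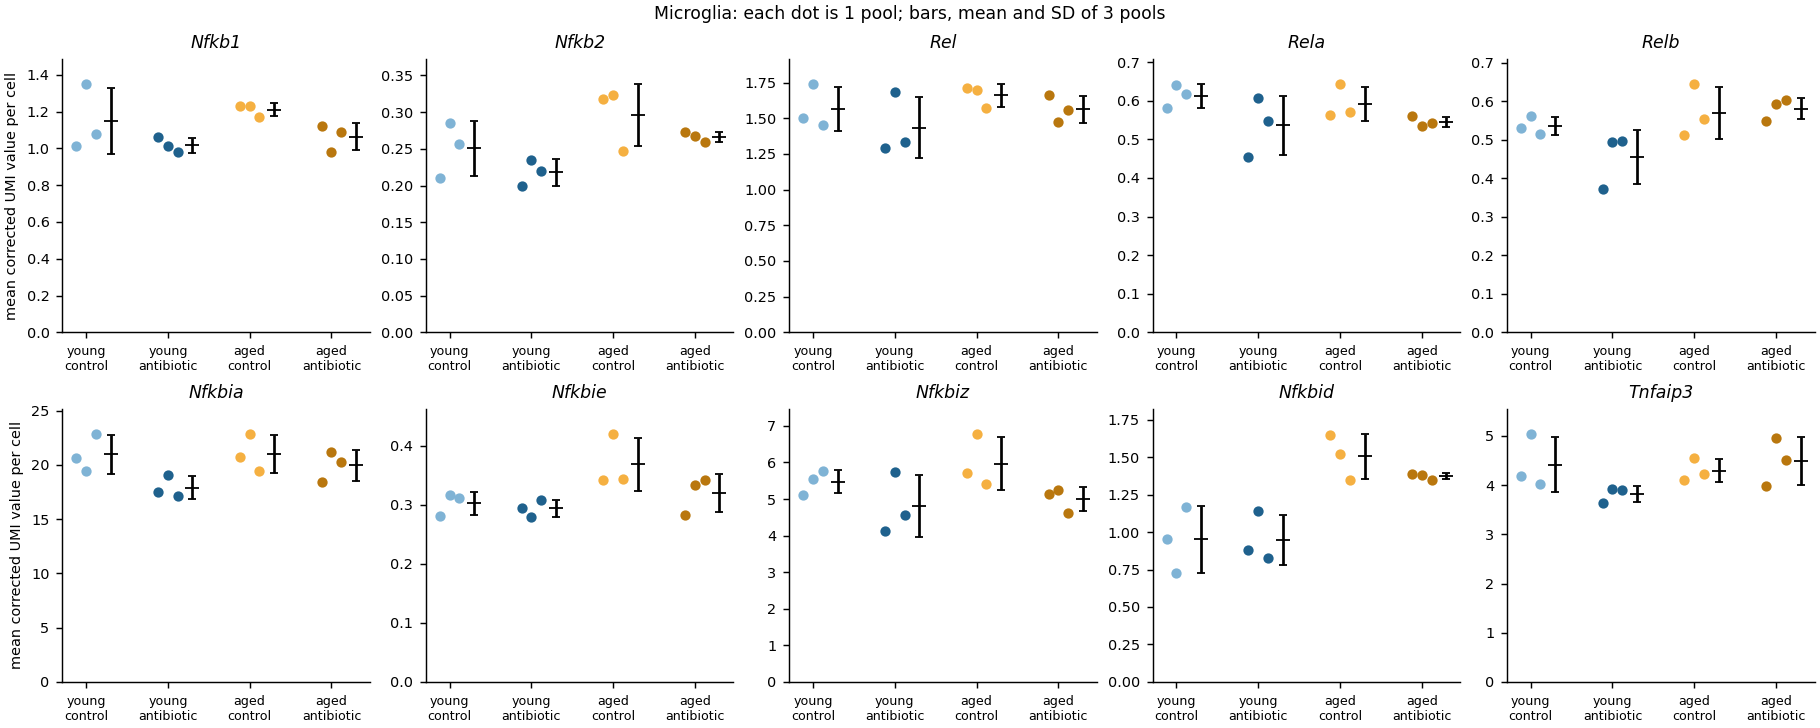
Mean SCT-corrected UMI value per cell (vertical axis, linear from 0) of the 10 members in microglia by group (horizontal axis). Each dot is 1 of 12 pools and bars give the mean and SD of 3 pools; for Nfkbid all aged pools (1.35 to 1.65) lie above all young pools (0.728 to 1.17).

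With age, Nfkbid was the member that changed in microglia in both arms. Nfkbid encodes an atypical nuclear inhibitor that alters which target genes are transcribed. In control mice Nfkbid was 0.953, 0.728 and 1.17 in the young pools and 1.65, 1.52 and 1.35 in the aged pools. The groups did not overlap, and Nfkbid rose 1.57-fold (log2 0.65 ± 0.13 SE, adjusted p = 0.00643). In antibiotic mice Nfkbid was 0.877, 1.14 and 0.825 in the young and 1.39, 1.38 and 1.35 in the aged pools, again without overlap, and rose 1.44-fold (0.53 ± 0.13, adjusted p = 0.0173). In control mice this was 1 of 10 members called (0 lower), where 2.66% of all genes were called.

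In antibiotic mice 2 of 10 members were called, both higher, where 6.15% of all genes were called. The second was Relb, the subunit of the non-canonical pathway, at 0.373, 0.495 and 0.496 in young and 0.549, 0.592 and 0.602 in aged antibiotic pools (log2 0.33 ± 0.09, adjusted p = 0.0393). In control pools Relb overlapped between ages (0.08 ± 0.09, adjusted p = 0.809). The call for Relb rested on single pools. It was lost without young control 1 (adjusted p = 0.0525), young antibiotic 1 (log2 0.21, adjusted p = 0.193), aged antibiotic 2 (adjusted p = 0.122) or aged antibiotic 3 (adjusted p = 0.112). The call for Nfkbid in antibiotic mice was lost without young antibiotic 1, young antibiotic 3 or aged antibiotic 2 (adjusted p = 0.0625, 0.0851 and 0.056, with log2 differences of 0.48, 0.44 and 0.52), whereas in controls it held without each pool in turn. With no filter on low values, which brings more genes into the adjustment, the adjusted p of Nfkbid was 0.0771 in control and 0.104 in antibiotic mice. The age comparisons and the antibiotic comparisons share pools, so their values for a member are not independent.

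Every aged pool lay above every young pool for 2 of 10 members in control mice, Nfkbie and Nfkbid, a separation that 12.6% of all genes showed. In antibiotic mice 4 of 10 did so, Nfkb2, Relb, Nfkbid and Tnfaip3, against 15.4% of genes. Nfkbie was 0.281, 0.316 and 0.311 in young and 0.342, 0.421 and 0.344 in aged control pools (log2 0.24 ± 0.09, adjusted p = 0.185). For Nfkbia, the most widely detected member, the age difference in controls was 0.00 ± 0.09 on the log2 scale, with a 95% interval of -0.18 to 0.18. Because the aged and young pools were in separate wells, none of these differences can be assigned to age alone.

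**Figure D3:**
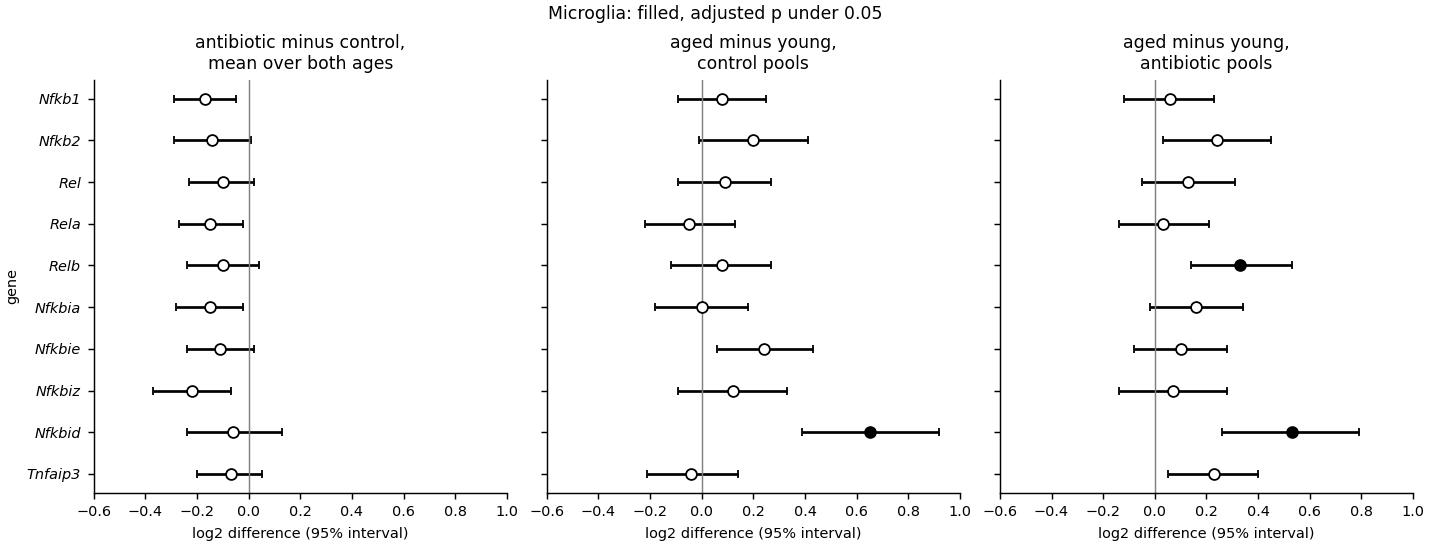
Log2 difference of each member in microglia (points, with 95% intervals; horizontal axis on a log2 scale) for antibiotic minus control over both ages and for aged minus young in each arm. Filled points passed the adjusted p threshold: Nfkbid in both age comparisons (0.65 and 0.53) and Relb in antibiotic pools (0.33); all 10 points lie below 0 in the antibiotic comparison.

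The other genes of the pathway were compared in the same microglia fit. Of 20 genes of the IKK complex and upstream adaptors, 1 was called in aged antibiotic against aged control pools, namely Tab1, an adaptor of the kinase that activates IKK (0.0775 ± 0.00964 and 0.144 ± 0.00863, SD; log2 0.61, adjusted p = 0.00189). That is 1 of 20, where 3.23% of all genes were called, and the median of the list was -0.03 against -0.01 for all genes. Tab1 was also the 1 gene of the list called over both ages (5.40% of all genes) and by age in antibiotic mice (log2 0.54, adjusted p = 0.00174; 6.15% of all genes), and no gene of the list was called by age in controls (median -0.02 against 0.02). Of 14 other negative regulators tested of 15, 2 were called higher in aged antibiotic pools, Otulin, a deubiquitinase (0.476 ± 0.0252 and 0.609 ± 0.0634), and Pdlim2, which promotes Rela degradation (0.128 ± 0.00829 and 0.173 ± 0.0139), again beside 3.23% of all genes. By age in antibiotic mice 2 of 14 were called higher, Pdlim2 (log2 0.47, adjusted p = 0.00197) and Zc3h12a, an RNA-cleaving inhibitor of inflammation (0.37, adjusted p = 0.0245), beside 6.15% of all genes, and none by age in controls. Otulin was the 1 called over both ages.

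Of 22 inducible targets of NF-kB, 20 passed the filter on low values. By age in controls 4 were higher and 0 lower, where 2.66% of all genes were called, with a list median of 0.27 against 0.02 for all genes. The 3 largest were Csf1, a growth factor for microglia (0.474 ± 0.134 to 0.979 ± 0.195), Ccl2, a monocyte chemokine (1.00 ± 0.356 to 1.90 ± 0.617), and Tnf (1.44 ± 0.146 to 2.61 ± 0.818). By age in antibiotic mice 6 were higher and 0 lower, beside 6.15% of all genes (median 0.34 against 0.03), led by Tnf (1.14 ± 0.288 to 2.63 ± 0.56, adjusted p = 0.000504). With antibiotics over both ages 3 were lower and 0 higher, beside 5.40% of all genes, and 20 of 20 had a log2 difference below 0 (median -0.16 against -0.01). Those called were Il1a, an interleukin-1 cytokine (log2 -0.45 ± 0.09, adjusted p = 0.00669), Gadd45b, a stress-response gene (-0.37 ± 0.09), and Bcl2a1b, an anti-apoptotic gene (-0.31 ± 0.06). Il1a was 3.64 ± 0.504 in young controls against 2.66 ± 0.401 with antibiotics, and 4.41 ± 0.874 in aged controls against 3.19 ± 0.374 with antibiotics (SD, n = 3 pools). In the age comparison of controls the dissociation list went the other way, with 4 of 16 called lower and 0 higher (median -0.23), led by Klf4 (5.40 ± 0.685 to 3.27 ± 0.402) and Klf2 (32.0 ± 5.65 to 21.2 ± 1.95). By age in antibiotic mice its calls were mixed, with 2 of 16 lower and 1 higher (Nr4a1, log2 0.49), at a median of -0.15.

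Pools with more of 1 member mostly had more of the others. Over the 12 microglia pools, after each group's mean was subtracted, 37 of 45 pairs of members had a Pearson r above 0, with a median of 0.31 and a range of -0.48 to 0.86. The highest were Rela with Nfkbiz (r = 0.86) and Rela with Relb (r = 0.84), and the lowest were Nfkbid with Tnfaip3 (r = -0.48) and Nfkb1 with Nfkbid (r = -0.46). Points share wells, depth and dissociation, so these are descriptions without a p. The share of pairs above 0 among other genes was not computed, so a trait particular to these members is not shown. The genes named next are the highest of all candidates over 12 points, and no level for a random gene was computed. Among 4736 other genes the ones most like Nfkbia over these pools were Nhp2 (r = 0.92), the chemokine Ccl4 (0.90), Lsm5 (0.88) and Tnf (0.88). Those most like Nfkbiz were the immediate early gene Ier2 (0.97), the chemokine Cxcl10 (0.93), Ggnbp2 (0.90) and Tapbp (0.89). Tnfaip3 was most like Dazap2 (0.95), Ssbp4 (0.93), Mrto4 (0.91) and Mcrip1 (0.91), and Nfkb1 most like Dnmt3a (0.98), Lyl1 (0.97), Ddx6 (0.95) and Sfpq (0.90). Over the means of 9 cell types, the genes most like Nfkbia were Cd9 (0.91), Zc3h12a (0.91), Jup (0.91) and Gcnt1 (0.90).

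From cell to cell the 3 most widely detected inhibitors went together. Within each microglia pool, the Spearman rho over cells was 0.49 at the median of 12 pools for Nfkbia with Nfkbiz (0.41 to 0.55), 0.49 for Nfkbia with Tnfaip3 (0.41 to 0.52) and 0.43 for Nfkbiz with Tnfaip3 (0.39 to 0.47). Nfkbia was as close to the immediate early gene Junb (0.49, 0.40 to 0.58). Cells of a pool share a library, and residual depth remains in corrected values. Nfkbia spanned 3 at the 10th percentile of microglia, 16 at the median and 42 at the 90th percentile.

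Member levels differed most by age in ILCs, and this label covers a mixture of cells whose shares differed between the groups. Natural killer markers (Ncr1, Klrb1c, Nkg7, Prf1) and markers of helper-like ILCs (Gata3, Rora, Areg) both occurred in this type, and the authors' NK type holds only 9 cells. A split of its cells, chosen after the values were seen, counted a cell as NK-marker when it held at least 2 of those 4 genes and fewer than 2 of the 3 others, and the reverse for Gata3/Rora/Areg cells. In young mice NK-marker cells were 71.9% of control ILCs (64 of 89 cells) and 78.8% of antibiotic ILCs (52 of 66), and in aged mice 32.6% (42 of 129) and 30.4% (14 of 46). Gata3/Rora/Areg cells were 14 of 89, 5 of 66, 43 of 129 and 23 of 46 in the same order. The 4 NK markers summed to 21.4 to 30.2 per cell in young controls and 19 to 24 with antibiotics, against 7.18 to 13.5 and 11.7 to 14.4 in the aged groups, with none at 0 in all pools of a group. Averaged over the cells of all pools together, Nfkbia was 3.44 per cell in NK-marker cells and 31.6 in Gata3/Rora/Areg cells. In the same order Nfkb1 was 0.738 and 6.44, Nfkbiz 0.901 and 6.84, and Tnfaip3 2.58 and 10.1. Cd3e, a T cell marker, reached 2.01 per cell in 1 aged control pool. Apart from the values per class given below, the part of this mixture in the results was not tested.

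The tests of the whole type ran on 11 pools of 11 to 87 cells, without aged antibiotic pool 2, which had 5 cells. By age in antibiotic mice 4 of 10 members rose, where 1.44% of genes were called: Nfkbia, Nfkb1, Nfkbiz and Tnfaip3. Nfkbia was 1.28, 4.17 and 2.07 in the young antibiotic pools and 22.9 and 18.5 in the aged (log2 3.18 ± 0.30, adjusted p = 3.6e-06), and the pool left out had 21.0. Nfkb1 was 0.611, 0.667 and 0.733 against 4.06 and 4.60 (2.61 ± 0.29, adjusted p = 1.24e-05). Nfkbiz differed by 2.48 ± 0.39 (adjusted p = 0.000758) and Tnfaip3 by 1.94 ± 0.26 (adjusted p = 0.000125). Among cells between the 25th and 75th percentile of raw UMIs these last calls were lost (adjusted p = 0.583 for Nfkbiz and 0.0522 for Tnfaip3). Young antibiotic 1 and aged control 1 then held only 5 ILCs each. By age in controls 1 of 10 was called, where 0.912% of genes were: Nfkbia, at 6.19, 6.76 and 7.59 in young and 22.9, 12.9 and 21.7 in aged pools (1.44 ± 0.27, adjusted p = 0.00672). That call was lost without young control 1 (1.37, adjusted p = 0.0596). Every aged pool lay above every young pool for 5 of 10 members in controls (5.87% of genes) and 6 of 10 in antibiotic mice (11.1% of genes).

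Within the NK-marker cells alone, Nfkbia averaged over all cells of a group was 4 in young and 4.81 in aged controls. With antibiotics it was 1.98 in young and 2.14 in aged mice. By pool Nfkbia was 3.54, 4.5 and 4.18 in young and 7, 3.96 and 6.3 in aged controls (4, 28 and 10 cells in the aged pools). By pool with antibiotics it was 1.4, 2.17 and 2.24 in young mice and 2.75 and 1.9 in aged pools 1 and 3. In Gata3/Rora/Areg cells, averaged likewise, Nfkbia was 20.7 in young (14 cells) and 36.3 in aged controls (43 cells). With antibiotics it was 8 in young (5 cells) and 34.6 in aged mice (23 cells). By pool these were 28.3, 15.8 and 20.3 in young and 48.2, 37.4 and 31.9 in aged controls. By pool with antibiotics they were 0, 18.5 and 1.5 in young and 34.7, 31.7 and 35.3 in aged mice. These class values are descriptions, the classes having been chosen after the values were seen.

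With antibiotics in young mice 2 of 10 members fell in ILCs, where 0.0600% of genes were called. Nfkbia was 6.19, 6.76 and 7.59 in control and 1.28, 4.17 and 2.07 in antibiotic pools (log2 -1.59 ± 0.27, adjusted p = 0.0292). Nfkb1 was 2.00, 1.84 and 1.78 against 0.611, 0.667 and 0.733 (-1.42 ± 0.26, adjusted p = 0.0391). In both genes the groups did not overlap, yet neither call was firm. The call for Nfkbia was lost without any single young control pool, young antibiotic 1, young antibiotic 3 or aged antibiotic 1 (adjusted p of 0.0687 to 0.247). The call for Nfkb1 was lost without any single young pool or aged antibiotic 1 (adjusted p of 0.0762 to 0.247). Both calls were also lost under 10 other settings, with adjusted p up to 0.98, and with the log taken per cell the differences were -0.92 for Nfkbia and -0.48 for Nfkb1, on that scale. Within NK-marker cells Nfkbia was 3.54, 4.50 and 4.18 in young control and 1.40, 2.17 and 2.24 in young antibiotic pools, again without overlap, and Nfkb1 was 0.923, 1.25 and 0.591 against 0.267, 0.583 and 0.720, which overlapped. For these NK-marker values of 3 against 3 pools, a two-sided exact permutation test gave p = 0.1 for Nfkbia and 0.2 for Nfkb1. Adjusted over the 4 genes tested, the exact permutation test gave p = 0.4 for both. This exact permutation test cannot go below p = 0.1 with 3 against 3 pools, so no gene could have passed 0.05. No conclusion is drawn from this test.

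In aged mice 0 of 10 members were called in ILCs with antibiotics (limma, 0.0840% of genes called), and over both ages 0 of 10 (0.0120% of genes). At an unadjusted p under 0.05 were 1 of 10 members and 574 of 8335 genes in aged mice. Over both ages there were 1 of 10 members and 466 of 8335 genes. The antibiotic effect differed between ages for 1 of 10 members, where 0.0480% of genes were called: for Nfkb1 it was 2.05 ± 0.38 higher on the log2 scale in aged than in young mice (adjusted p = 0.0481). That call was lost without 10 of the 11 pools, each left out alone (adjusted p of 0.0548 to 0.16), aged control 3 being the exception. With the log taken per cell the difference was 0.71 (adjusted p = 0.883). Without young antibiotic 2 the difference for Nfkbia, not called otherwise, was 2.18 (adjusted p = 0.0044).

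**Figure D4:**
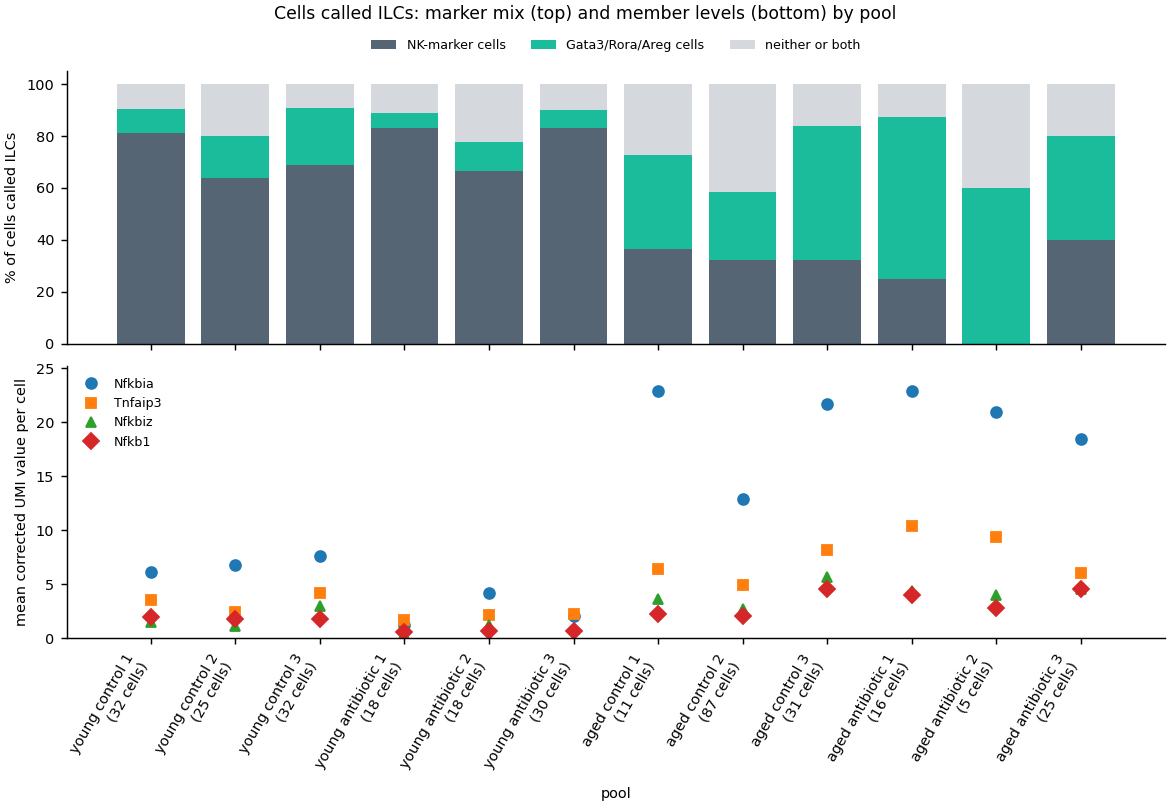
Top, percentage of the cells called ILCs in each pool (horizontal axis) that were NK-marker cells, Gata3/Rora/Areg cells or neither or both. Bottom, mean SCT-corrected UMI value per cell of Nfkbia, Tnfaip3, Nfkbiz and Nfkb1 in the same pools; aged pools have a smaller share of NK-marker cells than young pools and higher Nfkbia (12.9 to 22.9 against 1.28 to 7.59), and aged antibiotic 2, with 5 cells, was not in the test.

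In the other 6 types tested no member was called in any of the 6 comparisons. Over these 360 tests of a member in a type and comparison, 33 had an unadjusted p under 0.05 in limma. Among all genes the number at that level varied widely between types and comparisons. It went from 85 of 8287 (CD8+ cells, antibiotics in aged mice) to 1439 of 8287 (CD8+ cells, antibiotics in young mice). A share of all genes over the same comparisons together was not computed, so the count of 33 is not read as a result about the members. The intervals were wide and do not show that the members were unchanged: the median distance from the estimate to the end of its 95% interval was 0.50 in BAM, 0.57 in Ly6CLow, 0.81 in Ly6CHigh, 1.04 in Ly6C+Ly6G+, 0.78 in B cells and 0.77 in CD8+ cells on the log2 scale, against 0.18 in microglia and 0.80 in ILCs. The share of all tests over genes that were called was 0.0541% in BAM, 0.451% in Ly6CLow, 0% in Ly6CHigh, 0.00723% in Ly6C+Ly6G+, 0.0119% in B cells and 0.179% in CD8+ cells. All 10 members passed the filter on low values in each type. The fits for Ly6CHigh and Ly6C+Ly6G+ cells lacked young antibiotic 2, and the latter also aged control 1 and aged antibiotic 2. The fit for CD8+ cells lacked young control 2. Fewer than 10 cells were the reason in each case.

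The lowest adjusted p was that of Nfkbie in Ly6CLow cells, at 0.512, 0.879 and 0.653 in young antibiotic and 0.229, 0.377 and 0.260 in aged antibiotic pools (log2 -1.10 ± 0.29, adjusted p = 0.0573). The groups did not overlap, and the difference passed the threshold under 4 alternative settings and without aged control 1 (adjusted p = 0.0494). With cells of at least 2000 raw UMIs it was -0.74 ± 0.30 (adjusted p = 0.624), and between the 25th and 75th percentile of raw UMIs -0.43 ± 0.48 (adjusted p = 0.961).

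With all cells, Tnfaip3 had higher means in aged than in young mice in most types without being called outside ILCs, and in Ly6CLow cells this was lost when shallow cells were left out. In control mice its log2 difference was above 0 in 7 of 8 types (microglia, at -0.04, being the exception; median 0.54), and in antibiotic mice in 8 of 8 (median 0.62). With cells of at least 2000 raw UMIs it was above 0 in 6 and 7 of 8 types, and with cells between the 25th and 75th percentile of raw UMIs of the type in 5 and 6 of 8. The latter fits set no minimum of remaining cells per pool. In Ly6CLow cells Tnfaip3 was 2.07, 2.90 and 1.84 in young control and 3.60, 3.90 and 3.15 in aged control pools (0.66 ± 0.18, adjusted p = 0.0969). These groups did not overlap, and the difference passed the threshold when pools were scaled to a common sum (0.80, adjusted p = 0.0424), without young control 2 (0.84, adjusted p = 0.0427) and without aged control 3 (0.74, adjusted p = 0.0445). In B cells the means were 0.722 ± 0.448 and 1.79 ± 0.545 (1.41 ± 0.38, adjusted p = 0.155), and in Ly6CHigh cells 0.743 ± 0.14 and 1.34 ± 0.344 (0.80 ± 0.28, adjusted p = 0.315). Shallow cells were more frequent in aged mice: cells under 2000 raw UMIs were 31.7% of aged and 4.38% of young Ly6CLow cells, 23.5% and 5.74% of B cells and 54.7% and 1.41% of Ly6CHigh cells, although the median of B cells was higher in aged mice (6165 and 4701). In Ly6CLow cells the Tnfaip3 difference in controls went from 0.66 to -0.03 ± 0.22 with cells of at least 2000 raw UMIs and to -0.03 ± 0.33 between those percentiles. In antibiotic mice it went from 0.51 to -0.12 ± 0.22 and -0.09 ± 0.33. The 5 ILC markers summed in Ly6CLow cells to 0.439 to 1.55 in young control and 0.697 to 1 in young antibiotic pools. In aged control and aged antibiotic pools they summed to 2.4 to 4.71 and 2.38 to 4.06. The 4 NK markers overlapped between ages (0.951 to 8.22 in young and 1.66 to 4.79 in aged controls). The part of such cells in the members' levels in Ly6CLow cells was not tested. In Ly6CHigh controls the Tnfaip3 difference was 0.33 ± 0.28 and 0.76 ± 0.28 under the same restrictions, and in control B cells 1.42 ± 0.39 and 0.93 ± 0.40. For Ly6CHigh cells those percentiles were 693 and 16352 raw UMIs, so the second restriction still kept cells under 2000 raw UMIs. The types share mice and wells.

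**Figure D5:**
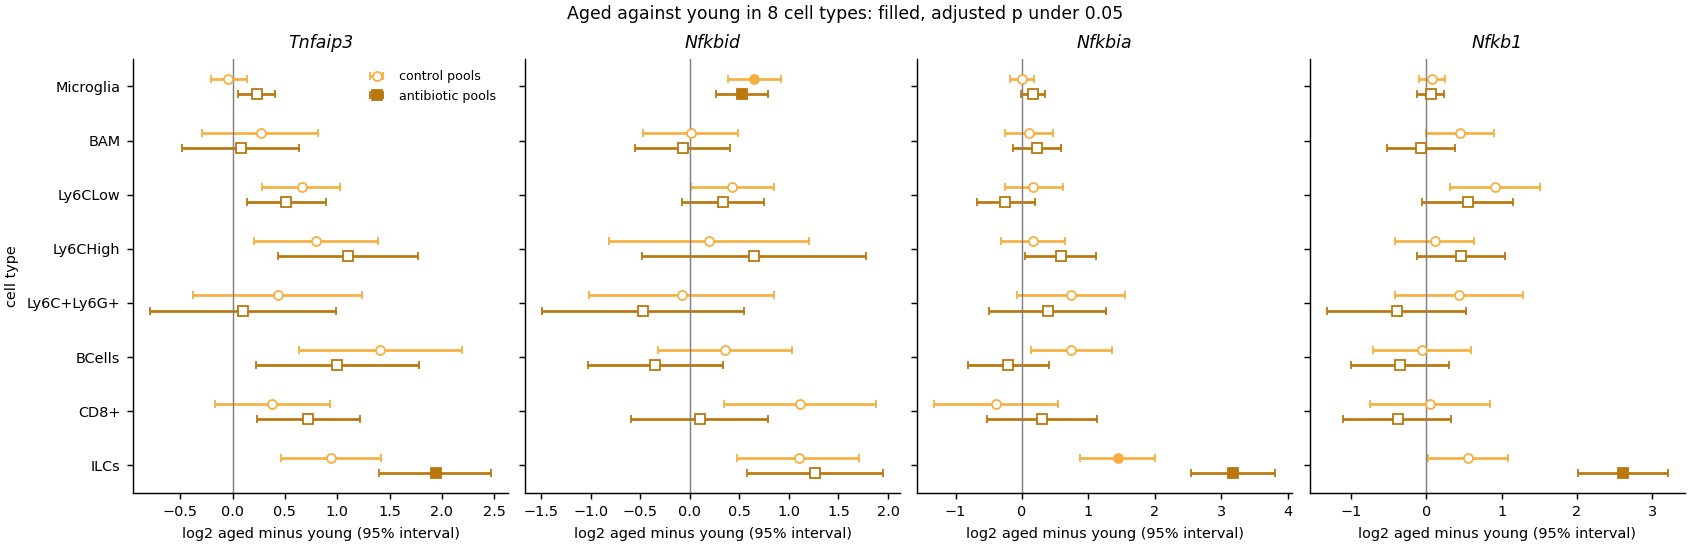
Log2 difference, aged minus young, of Tnfaip3, Nfkbid, Nfkbia and Nfkb1 (points with 95% intervals; horizontal axis on a log2 scale) in 8 cell types for control pools (circles) and antibiotic pools (squares). Filled points passed the adjusted p threshold: Nfkbid in microglia, Nfkbia in ILCs in both arms, and Tnfaip3 and Nfkb1 in ILCs of antibiotic pools.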

How the data were processed

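RNA and antibody tags of brain immune cells were read with the 10x 3′ assay; Cell Ranger 3.0.2, Seurat 3.0.1 and mm10 are named per the submitters' processing notes. The RNA values deposited by the authors are a score per gene and cell, the SCT-corrected UMI value: whole numbers whose sum equalled the SCT total in all 13052 cells and the raw total in 62, so no count model was used. Raw UMI totals are counts deposited by the authors. Cell types, groups, hashtags and singlet calls came from the deposited metadata; 34 of its columns were not used. How cells were chosen and the covariates of the correction are not given in the sources used here. Each pool's mean value per type was analysed as log2(mean + 0.05) with limma 3.58.1 (trended prior, shared spread, R 4.3.3), in 6 comparisons with Benjamini-Hochberg adjustment. Microglia and Ly6CLow had at least 20 cells in every pool; other types were tested on pools of at least 10 cells with at least 2 pools per group. P-values measure the spread between pools. The fit was tested on simulated data. Named genes: all 10 members, up to 3 called genes with the largest change per list and comparison, and the 4 genes most like Nfkbia, Nfkbiz, Tnfaip3 and Nfkb1. Members, lists and tests were chosen with earlier results of these data known. Alternatives changed the pseudocount, filter, averaging, scaling, prior, pools and depth of cells, the averaging and the depth also for the order of types.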

Additional observations from a re-analysis of the deposited data

Results flagged for a closer look

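The antibiotic effect on Nfkb1 in ILCs differed between ages by a test of the difference itself, at 2.05 on the log2 scale (limma, aged minus young, adjusted p = 0.0481). The call was lost under 19 of 23 alternatives, with values from 0.71 to 2.41 and adjusted p up to 0.984. Nfkb1 was lower with antibiotics in young mice (-1.42 ± 0.26, SE) and 0.63 ± 0.29 higher in aged mice, the latter not called. The share of Gata3/Rora/Areg cells, in which Nfkb1 was 6.44 per cell against 0.738 in NK-marker cells, was 15.7% of ILCs in young controls against 7.58% with antibiotics, and 43 of 129 ILCs in aged controls against 23 of 46 with antibiotics. Its part in the difference was not tested.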

How the results depend on the processing

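Of 37 results, 16 were labelled as kept under every alternative run. A count was taken as kept when equal or close to it, a fitted difference when its sign and side of the threshold held. Most of the 16 were counts of 0 members called. Among the fitted differences only Nfkb1 and Nfkbia in ILCs by age with antibiotics kept their call throughout, and 0 reversed. Fitted differences of the called members kept their sign but not their size: Relb in microglia by age with antibiotics was 0.09 to 0.39, and in ILCs Nfkb1 was -1.68 to -0.48 with antibiotics in young mice, its difference between ages 0.71 to 2.41, and Nfkbiz by age with antibiotics 1.03 to 2.83. Without young control 3, 9 members in place of 10 lay below 0 in microglia over both ages. The number of members called moved as follows. In microglia with antibiotics over both ages it was 2 with the log taken per cell, 1 with values capped at the 99th percentile, 1 with cells of at least 2000 raw UMIs (added after the data had been seen) and 0 to 1 with a pool left out. In microglia by age it was 0 in control mice without a filter. In antibiotic mice it was 0 without a filter, 1 with the pools of the contrast only, 1 with a prior without trend and 0 to 3 with a pool left out. In Ly6CLow cells by age it was 1 in controls after shifting pools to a common median or scaling them to a common sum, and 0 to 2 with a pool left out. In antibiotic mice it was 1 with a pseudocount of 0.5, a filter of 0.2, logs per cell or only the pools of the contrast, and 0 to 1 with a pool left out. In ILCs with antibiotics in young mice it was 0 under pseudocounts of 0.5 and 0.01, no filter, a filter of 0.2, logs per cell, the cap, cells between the 25th and 75th percentile of raw UMIs, cells of at least 2000 raw UMIs, only the pools of the contrast and a prior without trend, and 0 to 2 with a pool left out. For the difference between ages it was 0 under the same settings, except with only the pools of the contrast, and 0 to 1 with a pool left out. Over both ages it was 0 to 1 with a pool left out. By age in control ILCs it was 3 with logs per cell, 0 with the cap, 0 between those percentiles, 0 with a prior without trend and 0 to 3 with a pool left out. By age in antibiotic ILCs it was 2 between those percentiles and 2 with a prior without trend. In the 5 types other than microglia, Ly6CLow and ILCs it was 0 to 1 with a pool left out, both for antibiotics in young mice and for age in antibiotic mice. The cause was not tested.

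No paired analysis was possible because no hashtag number is shared by the arms and the labels join no pools across ages. Leaving out 1 aged antibiotic pool of ILCs left 1 pool in that group, which was assumed to vary like the others. Pools of few cells and 3 pools a group limit the precision.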

Other observations

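CD4+ cells were not tested because only 1 young antibiotic pool held at least 10 of them. Tnfaip3 was 2 and 3.50 in their 2 young control pools, 3.80 in the young antibiotic pool, 5.30 and 6.25 in the 2 aged control pools and 3.87, 4.44 and 5 in the 3 aged antibiotic pools of that size, with these aged pools all above these young pools. Nfkbia in the same cells overlapped between ages, at 2.14 and 5.12 in young control, 5.28 in young antibiotic, 6.75 and 7.33 in aged control and 1.93 to 6.50 in aged antibiotic pools.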
